A study of Mus musculus with 9 samples.

Results

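The cytosolic ribosomal protein genes encode the proteins of the large (Rpl) and small (Rps) subunits of the ribosome, the particle that translates mRNA in the cytoplasm. They were taken by name: every symbol made of Rpl or Rps, a number and at most a closing a, l or x, together with Rplp0, Rplp1, Rplp2 and Rpsa, and without Rps27. This gave 81 of the 24532 listed genes, 50 of the large and 31 of the small subunit. All 81 were listed for every mouse, and 76 of them averaged at least 30 reads and could be tested. The level of these genes was compared between mice and groups in the medial prefrontal cortex.

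The tissue came from 9 mice of the C57BL/6 strain (C57BL/6J in the methods), 3 in each group, with 1 library per mouse. The CT mice were wild type and not restrained, the WT_ST mice were wild type and went through chronic restraint stress (CRS), and the KO_ST mice were restrained Fkbp5-/- mice. By the study's methods the restraint lasted 6 h a day for 3 weeks, CT mice also went without food and water in those hours, and the knock-out mice came from a backcrossed line. The labels give an age of 11 weeks and the methods 8 weeks. No group of unstressed Fkbp5-/- mice was analysed here, so the effect of the genotype alone could not be compared.

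Cells keep the ribosomal proteins in nearly equal amounts, since each ribosome takes up a single copy of most of them. Their mRNAs are among the most abundant of any cell, and in mammals they typically begin with a short run of pyrimidines, the 5′ terminal oligopyrimidine (TOP) motif, through which the mTORC1 kinase and the protein LARP1 control their translation. Some members are paralogs used mostly in testis or in muscle, such as Rpl10l, Rpl39l and Rpl3l. The mouse genome also holds many processed copies of ribosomal protein mRNAs, which matters for counting reads.

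The annotated start of a few members is shown because the TOP motif is the sequence feature this family is known for. Each line is a 30-base window around the start in RefSeq's promoter sequences on GRCm38.p6, which for Rpl7a lies inside the gene as RefSeq bounds it, read 5′ to 3′ on the gene's own strand, with the run of C and T nearest the start in capitals.
Rps6 (chr4:86857353-86857382, minus strand): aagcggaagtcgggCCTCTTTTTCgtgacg
Rpl35 (chr2:39005117-39005146, minus strand): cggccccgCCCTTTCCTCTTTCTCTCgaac
Rpl7a (chr2:26910792-26910821, plus strand): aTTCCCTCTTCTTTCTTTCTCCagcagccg
Rps18 (chr17:33955651-33955680, minus strand): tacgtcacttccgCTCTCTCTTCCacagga
Rps7 (chr12:28635939-28635968, minus strand): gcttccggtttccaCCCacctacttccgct

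The run is 21 bases long in Rpl7a, 18 in Rpl35, 11 in Rps18 and 10 in Rps6, but 3 at the annotated start of Rps7. RefSeq promoter sequences were matched to 60 of the 81 genes. At least 8 pyrimidines in a row lay within 20 bases of the start, on the gene's strand, in 29 of these 60 genes (48.3%), against 18.3% of 26965 other genes. A stricter pattern, a C at the annotated start followed by 4 pyrimidines, was found in 13 of the 60 (21.7%) and in 2.97% of the other genes. An annotated start can differ from the start used in cortex, so a window without the run says only that these letters are not in it.

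Most members were expressed at closely similar, high levels. The median of the tested members was 172 FPKM (fragments scaled to transcript length in kilobases and to sequencing depth, a level per length), with quartiles of 131 and 245. Of the 81 genes, 65 averaged between 100 and 350 FPKM, 4 were above 350 and 12 were below 100. Their spread over the 9 mice was small, with a median coefficient of variation of 6.04%, against 8.43% over all tested genes and 4.95% over the 567 other genes of at least 100 FPKM.

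The 5 highest genes were Rplp1 (752 FPKM), Rpl41 (513), Rps15 (463), Rps29 (456) and Rps21 (331). Rplp1 encodes an acidic protein of the stalk that recruits translation factors, and it ranged from 707 to 869 FPKM over the mice. Its stalk partners were lower, with Rplp2 at 278 and Rplp0, the base of the stalk, at 141 FPKM on average. Rpsa, which also serves as a laminin receptor, averaged 180 FPKM and Rps27a, made as a fusion with ubiquitin, 176. Rps6, the substrate of the S6 kinases, averaged 117 FPKM and the X-linked Rps4x 216. Among these, no mouse lay more than 1.28 times above another for the same gene.

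Rpl3l, Rpl10l and Rpl39l lay far below their partners. Rpl3, which lines the catalytic center, averaged 272 FPKM, and its muscle paralog Rpl3l 0.178 FPKM. Rpl3l stayed between 0.12 and 0.25 FPKM in the 9 mice, from a mean of 12.6 reads. Rpl10 averaged 224 FPKM, while Rpl10l had 0 reads in every mouse. Rpl39 averaged 126 FPKM, and Rpl39l was listed at 0 in 5 mice and reached 0.15 in WT_ST 2. Rps27l averaged 9.52 FPKM, with 8.31 to 10.9 over the mice and overlapping groups, and was not compared with Rps27, whose reads were split with a copy. In FPKM, Rpl22 (32.5) lay below its paralog Rpl22l1, a gene outside the naming rule that ranged from 45.8 to 58.4. Rpl22 was not low in reads, as given below, and the reads of the 2 genes were not compared. Rpl32l, which carries a symbol of this family, was also close to 0, at 0.12, 0.03 and 0.17 FPKM in CT, 0.15, 0.43 and 0.61 in WT_ST and 0.15, 0.11 and 0.07 in KO_ST. The last differences rest on very few reads, with 2 to 17 in a mouse.

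**Figure D1:**
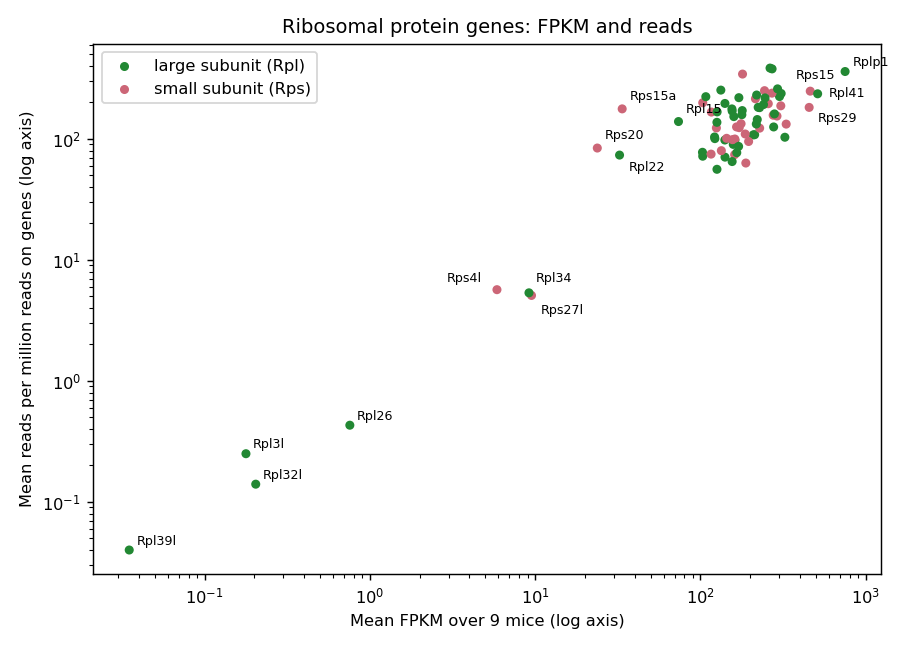
Mean FPKM (x axis) against mean RPM (y axis; reads scaled to the depth of the library, not to length), both on log axes, for the 80 ribosomal protein genes with reads; each point is a gene, and genes below 100 or above 350 FPKM are named. Most genes form a single cloud, Rps20, Rps15a and Rpl22 sit left of it at an ordinary number of reads, and Rpl26, Rpl34 and the paralogs sit far below it.

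Rps20 (23.8 FPKM), Rps15a (33.7 FPKM) and Rpl22 (32.5 FPKM) broke from the others in FPKM but not in reads. They received 84.0, 177 and 73.4 RPM (reads scaled to depth but not to length), within the 56.0 to 385 of the members at 100 FPKM or more. The length implied by reads and FPKM was 3527 bases for Rps20, 5254 for Rps15a and 2261 for Rpl22, against a median of 747 bases over the members. In all other members with reads the implied length was shorter.

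Rpl26 and Rpl34 broke in both measures, and near-identical copies carried the reads. Rpl26 (chr11:68901566-68904534) had 0.52, 0.62 and 0.63 FPKM in CT, 0.47, 0.70 and 0.80 in WT_ST and 1.18, 1.11 and 0.79 in KO_ST. Its processed copy Gm15772 took 99.7 to 99.9% of the reads of the pair in every mouse. The sum of both was 202 to 234 RPM, an ordinary level for the family. Rpl34 (chr3:130726827-130730398) lay between 8.16 and 10.46 FPKM, with 91.5 to 93.5% of the reads of the pair on Rpl34-ps1. Neither gene's low value can therefore be read as low expression, and the origin of the reads within a pair was not tested.

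The coding sequences of each pair are shown where they differ, since within the coding sequence only a read that spans these bases can tell gene and copy apart. The untranslated parts were not compared. Positions count from 1 at the first base of the start codon, in the GENCODE M21 transcript, with the differing base in capitals. Rpl26 and Gm15772 differ at 2 of 435 bases (C177T and T288C, the base of the gene first), and Rpl34 and Rpl34-ps1 at 2 of 351 (T132C and C318G).
Rpl26, bases 157 to 197: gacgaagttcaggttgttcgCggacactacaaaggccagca
Gm15772, bases 157 to 197: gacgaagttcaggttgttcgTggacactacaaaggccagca
Rpl34, bases 112 to 152: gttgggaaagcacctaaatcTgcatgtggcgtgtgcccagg
Rpl34-ps1, bases 112 to 152: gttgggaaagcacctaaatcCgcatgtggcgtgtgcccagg

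Such copies were the rule. Of 79 members with a GENCODE coding sequence, 73 had at least 1 other gene of at least 95% identity over 90% of that sequence, with a median of 5 such genes and a maximum of 56. For 15 members a near-identical copy was among the listed genes. Beyond the pairs above, the copies' share was largest for Rpl21, with 15.6 to 19.5% of the reads on BC004004. Rps27, the gene left out by the rule, and its copy Rps27rt traded places between mice. Rps27 carried 77.3 RPM in CT 2 and 53.5 to 60.6 in the KO_ST mice, but at most 1.46 in the other 5 mice. The sum of both genes stayed between 54.7 and 77.9. CT 2 therefore shared this pattern with the KO_ST mice. Rpl37rt, a listed copy of Rpl37, lay at 0.49, 6.4 and 2.7 RPM in CT, 0.18, 6.1 and 0.59 in WT_ST and 6.1, 8.3 and 6.7 in KO_ST.

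**Figure D2:**
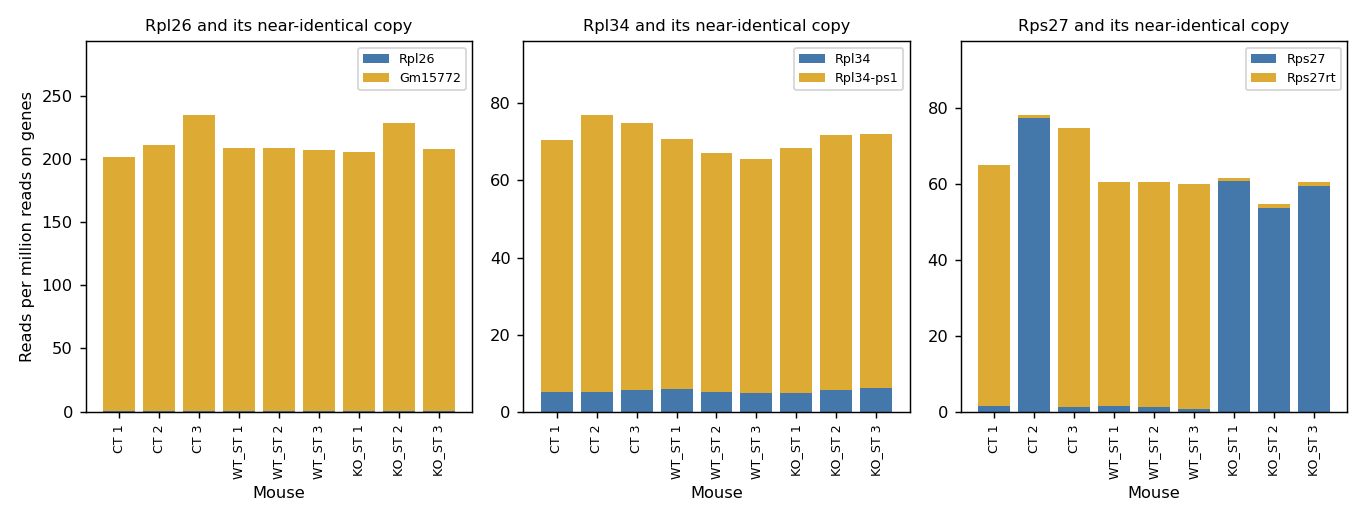
Reads scaled to depth (y axis, RPM) for Rpl26, Rpl34 and Rps27 (blue) and for their copies Gm15772, Rpl34-ps1 and Rps27rt (yellow), stacked, in each of the 9 mice (x axis). The copy holds nearly all reads of the first pair and 91.5 to 93.5% of those of the second, and the third pair switches in CT 2 and the 3 KO_ST mice.

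In the mice as a whole, CT 2 and CT 3 had more ribosomal protein mRNA than the others. The members took 1.13, 1.22 and 1.27% of all reads in CT, 1.15, 1.14 and 1.12% in WT_ST and 1.10, 1.14 and 1.13% in KO_ST. By group the share was 1.21% ± 0.072 in CT, 1.14% ± 0.016 in WT_ST and 1.12% ± 0.020 in KO_ST (SD, n = 3 each). CT 1 lay below WT_ST 1, WT_ST 2 and KO_ST 2, so the groups overlapped. The 95% Wilson intervals, which cover counting error only, were narrow, from 1.1301 to 1.1354% in CT 1 and from 1.2712 to 1.2775% in CT 3.

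CT 3 and CT 2 were again the highest mice when every gene was given equal weight, while the order of the other mice changed. The median deviation of the 76 tested members from their own mean over the 9 mice, in quantile-normalized log2(FPKM+1), was 0.0010 in CT 1, 0.085 in CT 2 and 0.094 in CT 3. It was -0.038, -0.012 and -0.022 in the WT_ST mice and -0.048, -0.031 and -0.049 in the KO_ST mice. CT 1 was thus nearest to WT_ST 2. The highest value of a member fell in CT 2 for 34 genes and in CT 3 for 28, although these mice held the highest value of only 17.7 and 13.0% of all tested genes. For 45 of the 76 members (59.2%) CT 2 and CT 3 were the 2 highest mice, against 6.71% of all tested genes. CT 2 and CT 3 were picked from the same values, so these counts describe the pattern and are no separate evidence for it. CT 3 and CT 2 were the highest mice for both subunits, with medians in CT 3 of 0.092 for the large and 0.095 for the small subunit.

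**Figure D3:**
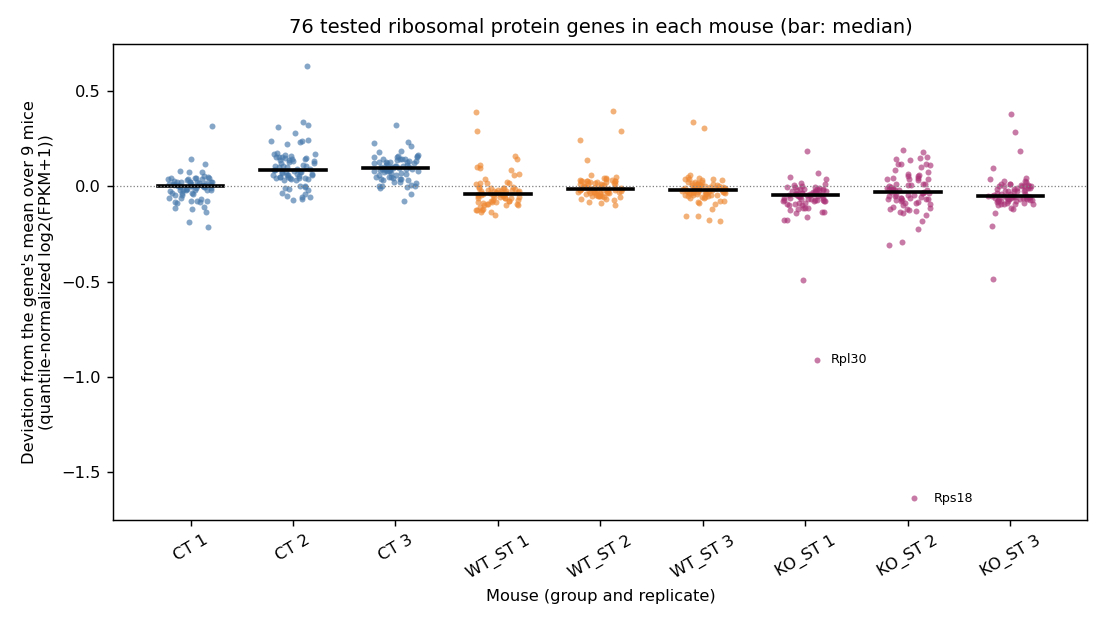
Deviation of each of the 76 tested ribosomal protein genes from its mean over the 9 mice (y axis, quantile-normalized log2(FPKM+1)) in each mouse (x axis); points are genes, black bars are medians and Rps18 and Rpl30 are named where they lie beyond 0.5. The medians of CT 2 and CT 3 (0.085 and 0.094) lie above those of the other 7 mice, and Rps18 and Rpl30 lie far from the rest in KO_ST mice.

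Restraint in wild-type mice was compared first (WT_ST against CT). Most ribosomal protein genes were slightly lower in WT_ST. The log2 difference was below 0 for 68 of 76 members, against 48.7% of all tested genes, and its median was -0.076, a decrease of a few percent, against 0.0034 over all tested genes. Members are not independent of each other, because they move together from mouse to mouse.

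By the criterion of an unadjusted p under 0.05 and a fold above 1.2, 2 of the 76 members (2.63%) were called, which is near the 2.47% of all tested genes. Rps19, a small subunit protein that is mutated in Diamond-Blackfan anemia, was the lower of them, with 117, 136 and 139 FPKM in CT, 107, 110 and 104 in WT_ST and 114, 107 and 111 in KO_ST. All WT_ST mice lay below all CT mice, and its log2 difference was -0.27 (SE 0.064, adjusted p = 0.562 in limma). The call was lost without CT 2, CT 3 or WT_ST 1, with differences of -0.24, -0.24 and -0.25.

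Rps4l was higher. RefSeq lists this Rps4-related locus on chromosome 6 as a transcribed pseudogene, at chr6:148354656-148355596. It had 5.46, 5.70 and 6.05 FPKM in CT, 6.46, 7.92 and 7.40 in WT_ST and 4.96, 5.14 and 3.82 in KO_ST. The 3 groups did not overlap. Its log2 difference was 0.31 in WT_ST against CT (SE 0.078, adjusted p = 0.597 in limma) and -0.55 in KO_ST against WT_ST (SE 0.113, adjusted p = 0.450). Against CT it was -0.24 in KO_ST (adjusted p = 0.544 in limma), past no threshold, and it was -0.12 without KO_ST 3. The first call was lost without WT_ST 2 (0.25).

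Without the minimum fold, 22 of the 76 members (28.9%) were lower in WT_ST at p under 0.05 in limma, against 3.94% of all tested genes, and 1, Rps4l, was higher, against 3.92%. Of the members, 29 had every WT_ST mouse below every CT mouse, against 6.46% of all tested genes, and 1 had every WT_ST mouse above, against 7.54%. Those with the smallest p included Rpl29 (-0.23, SE 0.050), Rpl35 (-0.18, SE 0.044), Rps14 (-0.16, SE 0.039), Rpl13 (-0.17, SE 0.049), Rps15 (-0.14, SE 0.042) and Rpl17 (-0.11, SE 0.036), all on the log2 scale. No member passed an adjusted p under 0.05 in limma, edgeR or DESeq2, where 0.0348% of all tested genes passed in limma. The 22 became 35 without CT 1, 12 without CT 2, 9 without CT 3, 7 without WT_ST 1, 12 without WT_ST 2 and 11 without WT_ST 3, and were 14 in edgeR and 13 in DESeq2.

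KO_ST mice gave a similar picture against the same CT mice. The log2 difference was below 0 for 67 of 76 members, against 49.0% of all tested genes, with a median of -0.099 against 0.0024. The criterion of p and fold called 4 members (5.26%), all lower in KO_ST, against 3.56% of all tested genes in either direction and 2.03% in this direction.

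Rps7, a small subunit protein, had 136, 149 and 135 FPKM in CT, 132, 128 and 120.3 in WT_ST and 118, 99.6 and 107 in KO_ST. The KO_ST mice lay below all others and the 3 groups did not overlap. The log2 difference was -0.36 in KO_ST against CT (SE 0.075, adjusted p = 0.399 in limma), -0.15 in WT_ST against CT (SE 0.056, adjusted p = 0.635) and -0.21 in KO_ST against WT_ST (SE 0.063, adjusted p = 0.726). In DESeq2 its adjusted p against CT was 0.0121, and it was the only member to pass there, against 0.787% of the genes with an adjusted p in DESeq2.

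Rpl35, the large subunit gene with the 18-base pyrimidine run shown above, had 175, 191 and 189 FPKM in CT, 163, 159 and 164 in WT_ST and 159.5, 134 and 160.3 in KO_ST. Every CT mouse lay above every stressed mouse, and KO_ST 2 was the lowest. The log2 difference from CT to KO_ST was -0.29 (SE 0.074, adjusted p = 0.470 in limma). It was no longer called without CT 2 (-0.25) or KO_ST 2 (-0.21).

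Rpl29, of the large subunit, had 127, 143 and 143 FPKM in CT, 117, 118 and 116 in WT_ST and 119, 102 and 118 in KO_ST. Its CT mice again lay above all others, by a gap of 0.099 on the log2 scale. The difference from CT to KO_ST was -0.27 (SE 0.069, adjusted p = 0.470 in limma), and the call was lost without CT 2, CT 3 or KO_ST 2 and in edgeR and DESeq2. Rps2, a small subunit protein near the mRNA entry channel, had 242, 296 and 287 FPKM in CT, 229, 236 and 233 in WT_ST and 233, 226 and 221 in KO_ST. Its difference from CT to KO_ST was -0.28 (SE 0.078, adjusted p = 0.489 in limma), and it was not called without CT 2 (-0.21), in edgeR or in DESeq2.

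Without the minimum fold, 24 members (31.6%) were lower in KO_ST at p under 0.05 in limma, against 4.98% of all tested genes, and 0 were higher, against 4.47%. Among them were Rpl10 (-0.19, SE 0.047), Rpl13a (-0.20, SE 0.050), Rps15 (-0.15, SE 0.048), Rps19 (-0.21, SE 0.065) and Rpl17 (-0.15, SE 0.041). Of the members, 35 had every KO_ST mouse below every CT mouse, against 7.88% of all tested genes, and 0 had every KO_ST mouse above, against 7.94%. In limma 0 members passed an adjusted p under 0.05, against 0.0626% of all tested genes. The 24 became 14 without CT 2 and 14 without CT 3, and were 14 in edgeR and 14 in DESeq2. Since both comparisons use the same CT mice, the likeness of their lists is no independent evidence.

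**Figure D4:**
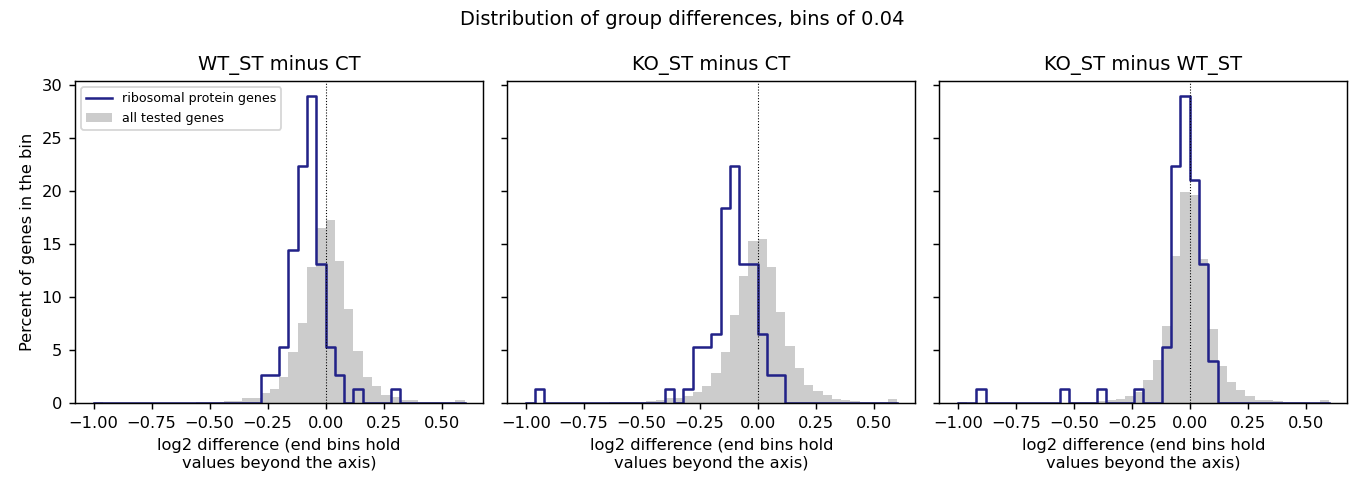
Percent of genes (y axis) in bins of 0.04 of the log2 difference (x axis) for the 3 comparisons; grey bars are all 14370 tested genes and the blue line the 76 tested ribosomal protein genes, with values beyond the axis placed in the end bins. The members are shifted below 0 in both comparisons with CT (medians of -0.076 and -0.099) and lie close to all genes in KO_ST against WT_ST (median -0.018).

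The stressed groups differed little from each other, the comparison that sets knock-out against wild type under stress. The median log2 difference of the members in KO_ST against WT_ST was -0.018, against -0.0015 over all tested genes, and it was 0.0017 in DESeq2. It was below 0 for 47 members (61.8%), against 50.7% of all tested genes. Only Rps4l was called (1.32% of the members, against 2.0% of all tested genes in either direction, 1.05% lower and 0.946% higher). At p under 0.05 in limma, 5 members were lower, against 3.15% of all tested genes: Rps4l, Rps7, Rpl10 (-0.10), Rpl19 (-0.08) and Rps23 (-0.09). The 5 became 2 without KO_ST 1, WT_ST 2 or WT_ST 3 and 8 without KO_ST 3, and were 2 in edgeR and in DESeq2. Rpl10a was higher by 0.09 on the log2 scale, against 2.68% of all tested genes. Of the members, 11 had every KO_ST mouse below every WT_ST mouse, against 5.97% of all tested genes, and 2 had them above, against 4.99%. No member passed an adjusted p under 0.05 in limma, against 0.153% of all tested genes, nor in edgeR or DESeq2.

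Over all 3 groups, CT stood above both others for 21 of the 76 members, against 2.76% of all tested genes, and below both for 0, against 2.75%. The gaps were narrow. After Rps4l in WT_ST (0.135 on the log2 scale), the widest belonged to Rpl29 (0.099), Rpl35 (0.094), Rpl17 (0.064) and Rps15 (0.050) in CT. KO_ST stood below both others for 10 members, against 1.98% of all tested genes, and none of these gaps was wider than 0.042. Rpl10, Rpl17, Rpl4 and Rps27a, like Rps7, had CT above and KO_ST below both others, so their 3 groups were also apart. The share of all tested genes with 3 separate groups was not counted.

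A few genes broke from this shared pattern. Rps18, a protein of the small subunit head, had 260, 261 and 277 FPKM in CT and 268, 252 and 260 in WT_ST, but 151 and 66.9 in KO_ST 1 and 2. KO_ST 3, with 261 FPKM, was within the range of the other groups. Its log2 difference was -0.94 in KO_ST against CT (SE 0.420, adjusted p = 0.544) and -0.90 against WT_ST (SE 0.418, adjusted p = 0.869 in limma), so the criterion was not met. Without KO_ST 3 these were -1.38 and -1.35 (adjusted p = 0.317 and 0.353 in limma), which met the criterion, and without KO_ST 2 -0.43 and -0.39.

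Rps18 lies at chr17:33951998-33955665, 5.55 Mb from Fkbp5 on the same chromosome (GRCm38). It has 5 near-identical genes in GENCODE, whose reads were not analysed here. The other 5 tested members on chromosome 17 had log2 differences of -0.05 to 0.09 in KO_ST against WT_ST. One of these, Rps2 (3.68 Mb from Fkbp5), was called lower in KO_ST against CT, as given above. They include Rpl10a, 0.07 Mb from Fkbp5, with 117 to 119 FPKM in WT_ST and 122 to 128 in KO_ST, and Rps28, 5.42 Mb away, with 178 to 195 in WT_ST and 183 to 216 in KO_ST. Fkbp5 itself was at 6.46 to 7.61 FPKM in CT, 9.47 to 10.3 in WT_ST and 3.59 to 4.69 in KO_ST, and did not mark KO_ST 3 apart from the other knock-out mice.

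Rpl30, of the large subunit, varied in every group. It had 139, 188 and 149 FPKM in CT, 202, 185 and 134 in WT_ST and 81.7, 145 and 200.2 in KO_ST. High and low mice occurred side by side in each group, and the difference of KO_ST from WT_ST was -0.37 (SE 0.312, adjusted p = 0.940 in limma). It was -0.02 without KO_ST 1 and -0.67 without KO_ST 3. Its listed copy Gm12191 took 0.17 to 2.26% of the reads of the pair.

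**Figure D5:**
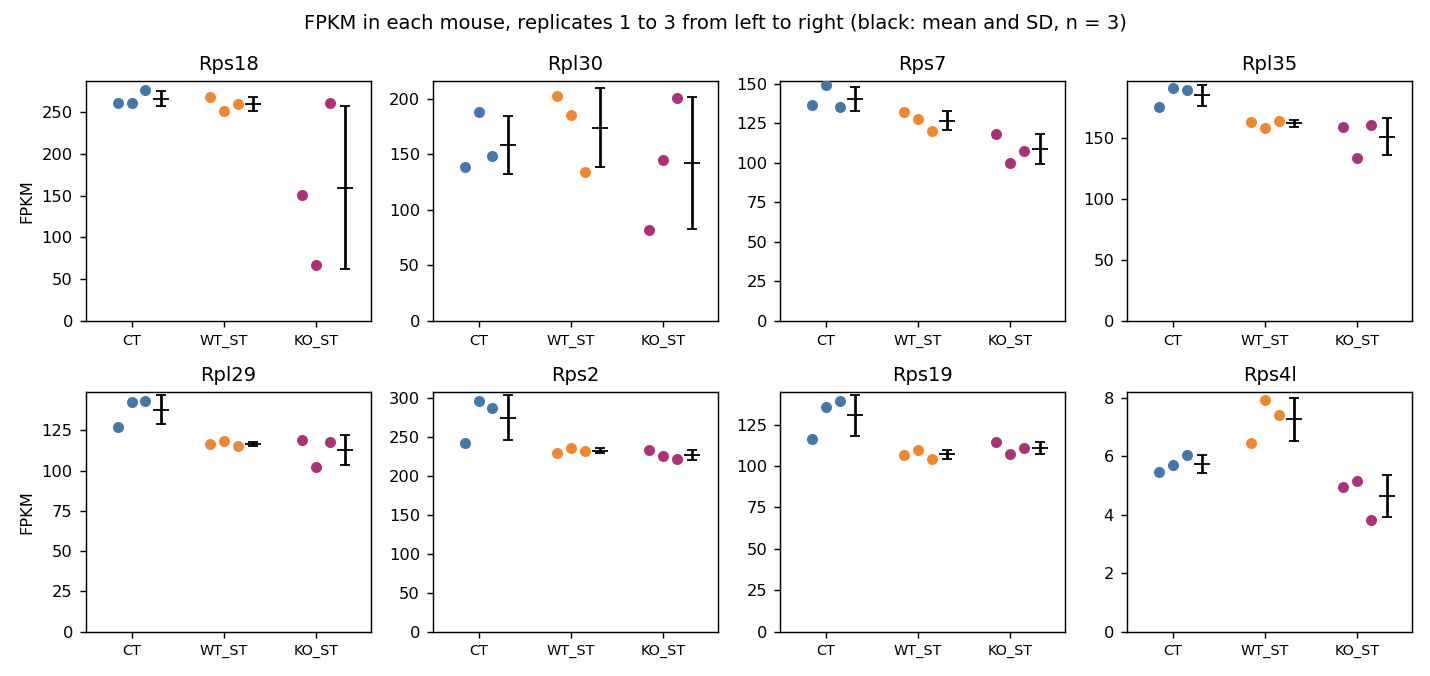
FPKM (y axis from 0) of 8 ribosomal protein genes in each mouse by group (x axis); colored points are mice, replicates 1 to 3 from left to right, and black marks are the mean and SD of 3 mice. Rps18 is low in KO_ST 1 and 2, Rpl30 is spread in all groups, and Rps7 and Rps4l separate the 3 groups.

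For 72 of the 76 tested members the highest mouse lay less than 1.5 times above the lowest. The ratio was widest for Rps18 (4.13 times), Rpl30 (2.48) and Rps4l (2.07). The median ratio was 1.199, against 1.298 over all tested genes. For Rps7 it was 1.497. Rpl7a was the steadiest, at 239 to 255 FPKM.

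Other genes of the translation machinery were set beside them. Of 38 translation factors, 44 ribosome biogenesis genes and 77 mitochondrial ribosomal protein genes, 0 was called in any of the 3 comparisons, against 2.47, 3.56 and 2.0% of all tested genes. Their medians in WT_ST against CT were 0.025, 0.021 and -0.016, and in KO_ST against CT -0.012, 0.0016 and -0.0066 on the log2 scale. Eef1a1, the elongation factor that brings tRNAs and whose mRNA also bears a TOP motif, was at 1136 to 1180 FPKM in CT, 1141 to 1183 in WT_ST and 1109 to 1177 in KO_ST. Its log2 difference was -0.07 in both comparisons with CT in limma, but 0.00 without CT 2 and 0.0041 in WT_ST in DESeq2. Eef1g, a subunit of the exchange factor for Eef1a1, was -0.09 in KO_ST against CT (SE 0.036, adjusted p = 0.501 in limma). The difference between these lists and the ribosomal protein genes was not tested.

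Among 30 genes of the mTORC1 pathway, Eif4ebp1, which encodes a repressor of cap-dependent translation, was called lower in both comparisons with CT. It had 5.18, 6.46 and 5.80 FPKM in CT, 4.81, 3.61 and 4.62 in WT_ST and 4.32, 3.76 and 4.77 in KO_ST. The log2 differences were -0.33 in WT_ST (adjusted p = 0.635 in limma) and -0.34 in KO_ST (adjusted p = 0.499). The first call was lost without CT 2 (-0.26) or WT_ST 2 (-0.22). Deptor, an inhibitor of mTOR, was called higher in WT_ST by 0.63 (SE 0.211, adjusted p = 0.634 in limma), with 1.67 to 4.05 FPKM in CT and 4.45 to 5.28 in WT_ST, but it was 0.39 without CT 2 and no longer called without WT_ST 3 (0.58). No other gene of the list was called. Of 8 ribosomal protein genes outside the rule, none was called in WT_ST against CT, with a median of -0.075. In KO_ST against CT only the exchanging pair was called, Rps27 higher by 3.61 and Rps27rt lower (-3.62) on the log2 scale, and in KO_ST against WT_ST the same pair (5.78 and -5.46). Against CT the pair was no longer called without any 1 of the 5 mice other than CT 2, with Rps27 down to 2.57 and Rps27rt at -2.57 without CT 3, and without CT 2 they were 5.63 and -5.65. Rps27 was also not called in edgeR (1.13). Among these, Rps3a1 was -0.15 in KO_ST against CT (adjusted p = 0.499) and Fau, fused to a ubiquitin-like protein, -0.13 (adjusted p = 0.501 in limma). Rpl37rt, the copy of Rpl37 and not among the 8, was also called higher in KO_ST, by 1.36 against CT (adjusted p = 0.525 in limma), and against WT_ST.

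The tissue's cell types moved beside these genes. Of 10 microglia markers, 8 were called lower in WT_ST and 6 in KO_ST against CT, with median log2 differences of -0.34 and -0.66. Of all tested genes, 1.32% were called lower and 1.16% higher in WT_ST, and 2.03% lower and 1.54% higher in KO_ST. The summed level of the microglia markers was 202 to 257 FPKM in CT, 163 to 186 in WT_ST and 94.2 to 202 in KO_ST. By mouse it was highest in CT 3, and it was 205 FPKM in CT 1 and 202 in CT 2. Of 8 astrocyte markers, 2 were called lower in WT_ST (Aqp4, -0.59, and Slc1a3, -0.30 on the log2 scale). In KO_ST against CT 0 were called, and Slc1a3 was -0.26. In each comparison 5 of the 8 were below 0, with medians of -0.14 and -0.11. Gfap (0.21 and 0.27), Aldh1l1 (0.16 and 0.135) and S100b (0.027 and 0.19) were above 0 in both. Astrocyte sums were 768 to 833 FPKM in CT, 690 to 725 in WT_ST and 704 to 811 in KO_ST. Slc1a3 was not called in WT_ST without CT 3 (-0.25). Of 8 oligodendrocyte markers 0 was called, with a median of 0.224 in WT_ST against CT, and their sum was highest in CT 3 (891 FPKM) and lowest in CT 2 (468). Of 9 endothelial and mural markers, 2 were called lower in each comparison with CT. Among 8 striatal markers, 3 were called higher in WT_ST and 2 in KO_ST. Only 2 markers of choroid plexus and ependyma could be tested. Foxj1 was called higher in both comparisons with CT, by 0.47 and 0.40 (adjusted p = 0.222 and 0.458 in limma). Kl was not called (0.07 and -0.10). Of the 10 neuron markers 0 was called, with medians of 0.125 in WT_ST and 0.167 in KO_ST against CT. Their median deviation was -0.0064, -0.092 and -0.090 in CT 1 to 3 and above 0 in the 6 stressed mice, and they summed to 4143 to 4646 FPKM in CT, 4582 to 4988 in WT_ST and 4616 to 4956 in KO_ST. Erythrocyte markers were highest in CT 3, at 954 FPKM, against 97.6 to 614 in the other mice. The part of these cell types in the level of ribosomal protein genes was not tested, and in bulk tissue fewer cells of a type and less RNA per cell cannot be told apart.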

How the data were processed

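Stranded poly(A) libraries were sequenced as paired-end reads. The submitters' processing notes name HISAT2 2.1.0, Bowtie2 2.3.4.1, StringTie 1.3.4d and the mm10 (GRCm38) build. For every mouse the authors deposited read counts, not normalized, and FPKM values, scaled for transcript length and depth. Gene counts summed to 43778471 in the shallowest mouse and 61150128 in the deepest. FPKM was taken as log2 with a pseudocount of 1, quantile normalized over 9 mice and tested with limma 3.58.1 (R 4.3.3, mean-variance trend), 2 groups at a time, over 14370 genes of at least 30 reads on average. The scale and the thresholds of p and fold follow the study's methods, while limma replaced the study's own test, which did not pool the spread over genes. P-values were adjusted by Benjamini-Hochberg over all tested genes, and they measure the spread between 3 mice a group. Share of reads used the counts. edgeR 4.0.16 and DESeq2 1.42.0 on the counts, other normalizations, filters and left-out mice served as alternatives. The counts of members lower at p under 0.05 without the minimum fold and 8 genes of other lists were recomputed under the same alternatives, a choice made after seeing the data. The code was tested on simulated data. Libraries of 2 mice differed by a chi-square per degree of freedom of at least 18.7. Gene positions are from RefSeq (GRCm38.p6), and copies were found by BLAST among GENCODE M21 transcripts.

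The members and gene lists were chosen with earlier results of these data known. Genes named are 15 family members and paralogs, called members, the 5 highest and lowest, those with the widest range over mice (1 of 5 is not reported here), the 5 with the widest gap between groups and the called gene with the largest difference among the other lists. Rps20, Rps15a, Rpl34, Rpl21, Rpl7a, the members listed for small p and genes of the other lists were named after their values were seen. Mice of the same replicate number were not alike in their deviations (correlation -0.26 to 0.23 over 9 pairs), which cannot exclude a shared batch behind the numbers.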

Additional observations from a re-analysis of the deposited data

How the results depend on the processing

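The median of the ribosomal protein genes stayed below 0 against CT under every normalization, filter, pseudocount and tool tried, and leaving out a mouse gave -0.11 to -0.061 in WT_ST and -0.13 to -0.075 in KO_ST, the largest shifts without CT replicate 1. KO_ST against WT_ST gave -0.023 to -0.010 without a mouse and was 0.0017 in DESeq2. The number of members called ranged from 1 to 4 (WT_ST against CT, main value 2), from 1 to 7 (KO_ST against CT, main value 4) and from 1 to 3 (KO_ST against WT_ST, main value 1) when a mouse was left out. KO_ST against CT gave 2 calls in edgeR with TMM and 2 in DESeq2. KO_ST against WT_ST gave 2 with all 9 mice in one fit, Rps18 being added. The deviation of CT replicate 3 was 0.14 without quantile normalization. With the replicate number as a block, Rps18 was called in both comparisons of KO_ST, giving 2 calls against WT_ST, and Eif4ebp1 was lost in WT_ST. Whether the numbers stand for a shared batch is not known. Among the single-gene differences recomputed, Eef1a1 in WT_ST against CT changed sign, to 0.0043 in edgeR and 0.0041 in DESeq2. The genes' levels rest on at least 43778471 reads per mouse, so depth does not limit the common members, but Rpl3l, Rpl10l, Rpl26, Rpl32l and Rpl39l had too few reads for a test.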
